A study of Mus musculus with 11 samples.

Results

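The unfolded protein response and protein folding in the endoplasmic reticulum (ER) were examined in mouse colon through 33 genes. They were chosen by symbol from general knowledge of the pathway, with earlier results of these data known. Ensembl identifiers matched them to the table of 22836 genes. The genes comprised 4 sensors of ER stress, 8 transcription factors and genes of the integrated stress response, 11 chaperones and cochaperones, 3 disulfide isomerases and 7 genes of ER-associated degradation. Over the 11 libraries all 33 averaged 10 normalized counts or more, the minimum for a gene to be tested, which 16781 genes reached. Polyadenylated RNA of whole colon was sequenced from 3 control samples, 3 *Tfam* fl/fl *Cd4* Cre samples, hereafter knockout colon, and 5 *Tfam* fl/fl *Cd4* Cre samples given CD4 T cell therapy, hereafter transferred colon. The study asked whether failing T cells damage the gut barrier and whether competent CD4 T cells prevent it. The mice were about 10 months of age. Controls carried the floxed *Tfam* alleles without Cre, and the transferred cells came from young donors. *Cd4* Cre acts at a thymocyte stage shared by both T cell lineages, so CD4 and CD8 T cells lack TFAM, a protein that maintains mitochondrial DNA, and recipients kept their own TFAM-deficient T cells beside the donor cells.

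Secreted and membrane proteins are folded in the ER by chaperones, glycan-binding lectins and enzymes that form disulfide bonds. When unfolded proteins accumulate, the membrane sensors IRE1, PERK and ATF6 raise the folding capacity, slow translation and send misfolded proteins to the cytosol for degradation. In the gut, cells that secrete heavily, such as goblet cells, Paneth cells and IgA-producing plasma cells, rely on this response. IRE1 acts by splicing *Xbp1* mRNA and PERK by phosphorylating a translation factor, and neither step is visible in counts of reads per gene.

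ATF6, XBP1 and ATF4 act on short promoter sequences, and these were searched by exact match on both strands in the RefSeq promoters (250 bases before to 50 bases after the transcription start, build GRCm38.p6) of the 28 genes that matched by symbol. *Atf6*, *Derl1*, *Ern2*, *Hyou1* and *Manf* had no entry. The ER stress response element (ERSE, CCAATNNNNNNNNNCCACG) was found in 8 of 28 genes (28.6%), against 0.119% of all 32851 promoters and 0.137% of 27025 genes. The second form, ERSE-II (ATTGGNCCACG), was found in 2 of the 28 genes (7.14%), against 0.0365% of all promoters and 0.0444% of genes. The C/EBP-ATF response element (CARE, TGATGNAAN), which ATF4 dimers bind, was found in 4 genes (14.3%), against 3.95% of all promoters and 4.5% of genes. The letters TGACGTGG, the core of the unfolded protein response element, were in none of the 28 genes, against 0.676% of all promoters and 0.714% of genes. Because the genes were chosen from knowledge of this pathway, these shares describe the list and are not an independent test of it. ERSE and ERSE-II share the letters CCACG, and no 2 matches overlapped. The windows below are shown for chaperones with an ERSE and large or precise differences between groups, for *Herpud1*, which had both an ERSE-II and a CARE, and for the amino acid response genes *Asns* and *Chac1*. Capitals mark the match, read 5′ to 3′ in the direction of the motif, with 15 bases on either side.
Hspa5, ERSE, chr2:34772010-34772058, plus strand: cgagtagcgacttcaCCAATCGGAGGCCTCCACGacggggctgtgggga
Dnajc3, ERSE, chr14:118937812-118937860, plus strand: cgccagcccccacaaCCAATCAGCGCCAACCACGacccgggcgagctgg
Creld2, ERSE, chr15:88819505-88819553, minus strand: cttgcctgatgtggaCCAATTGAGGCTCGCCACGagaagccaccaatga
Hsp90b1, ERSE, chr10:86705518-86705566, plus strand: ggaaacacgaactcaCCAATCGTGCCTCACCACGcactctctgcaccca
Herpud1, ERSE-II, chr8:94386362-94386402, plus strand: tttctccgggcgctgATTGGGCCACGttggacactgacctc
Asns, CARE, chr6:7693209-7693247, minus strand: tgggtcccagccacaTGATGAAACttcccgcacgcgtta
Chac1, CARE, chr2:119351033-119351071, minus strand: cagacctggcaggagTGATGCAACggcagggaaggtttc

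**Figure D1:**
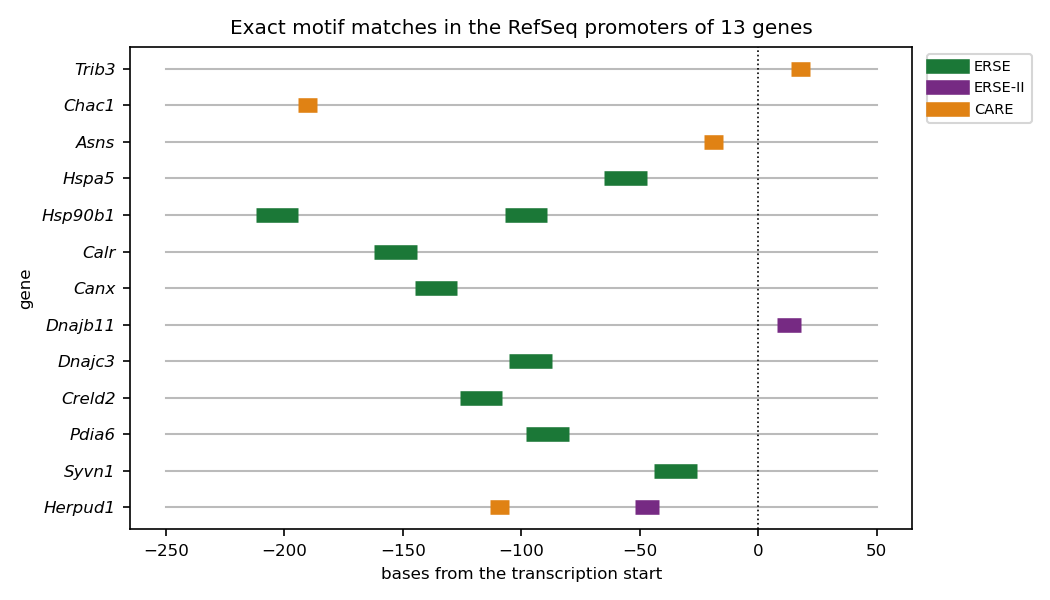
Positions of the motif matches in the 13 promoters that held any, in bases from the transcription start (dotted line), one gene per line, with ERSE in green, ERSE-II in purple and CARE in orange. The ERSE matches lay before the start in all 8 genes, *Hsp90b1* held a pair of them, and *Herpud1* held both an ERSE-II and a CARE.

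The libraries held 18214741 to 19178986 reads in genes (median 18786582), recovered from the steps of the deposited normalized counts, in which 1 read was worth 0.913 to 1.10 normalized counts. Since no animals are named in the labels, p-values refer to the spread among samples, which may be technical. *Tfam*, deleted in T cells alone in knockout mice, did not separate the groups in whole colon, with 977 to 1083 normalized counts in control, 1040 to 1102 in knockout and 865 to 1090 in transferred libraries (limma adjusted p = 0.678 between knockout and control). Mitochondrially encoded genes took 4.63% to 6.73% of reads in control, 2.55% to 3.44% in knockout and 3.84% to 4.82% in transferred libraries. Among replicates, transferred library 6 (sample 6 by its title, 5 by its column in the deposited table) was the most unlike the others of its group, and no pair of libraries was close enough to be a duplicate.

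The 33 genes together took 0.406% to 0.518% of the reads in control libraries, 0.727% to 0.855% in knockout libraries and 0.528% to 0.668% in transferred libraries. The ranges did not overlap between any of the groups, and the transferred libraries lay between the others. *Calr*, a lectin chaperone of the ER, was the most abundant member, with a mean of 14578 ± 2127 normalized counts in control (SD, n = 3), 27268 ± 2401 in knockout (SD, n = 3) and 20733 ± 3275 in transferred colon (SD, n = 5). Per kilobase of annotated exon, the level in knockout colon was highest for *Calr* (7151 normalized counts per kilobase), followed by *Pdia3* (3295), *Hspa5* (3163) and *Hsp90b1* (2809), and lowest for *Chac1* (32.6) and *Trib3* (12.4). *Pdia3* and *Hspa5* do not differ beyond their spread on this scale. In bulk tissue, more cells of a type and more RNA per cell cannot be told apart, which applies to every value below.

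Markers of several other cell types differed between the groups. Markers are counted as higher or lower at a limma adjusted p under 0.05. Of all genes tested, 22.7% were called higher and 22.9% lower in knockout than in control colon. Of 9 plasma cell markers, 8 were higher in knockout than in control colon (median difference 2.05 on the log2 scale), and their summed level was 29542 to 54191 normalized counts in control, 153740 to 183660 in knockout and 65052 to 145277 in transferred libraries. Of 9 macrophage markers 7 were higher (summed level 3902 to 5633 against 16328 to 20857, with 5965 to 13845 in transferred libraries), as were all 7 T cell markers (202 to 229 against 1074 to 1208, with 423 to 1157) and all 6 tested of 7 neutrophil markers (21.9 to 31.0 against 1624 to 4914, with 35.2 to 276). *Cxcr2* was the only neutrophil marker at 0 in every control library, and no marker of the other lists was. All 10 smooth muscle markers were lower (230534 to 289543 in control against 33378 to 48722, with 100275 to 162112 in transferred libraries). Of 10 epithelial markers 2 were higher (290988 to 358949 against 343938 to 438134, with 305007 to 424226), of 8 goblet cell markers 1 was higher and 1 lower (177213 to 385818 against 293692 to 425429, with 138076 to 587262), and of 6 fibroblast markers 1 was lower (14958 to 19202 against 12297 to 14650, with 13073 to 21159). The epithelial, goblet cell and fibroblast counts are near or below the shares of all genes. Between transferred and knockout colon, 2 plasma cell, 5 macrophage, 6 neutrophil and 2 T cell markers were lower, and 10 smooth muscle markers were higher, as were 1 macrophage and 1 fibroblast marker, while 1 epithelial marker was lower. Of all genes tested, 14.2% were called lower and 17% higher in that comparison. Within the transferred group, libraries 2 and 6 had the lowest share of reads in the 33 genes (0.528% and 0.530%). They also had the lowest summed plasma cell (65052 and 76879) and macrophage markers (5965 and 7063). The same libraries were lowest for goblet cell, neutrophil and fibroblast markers as well, and highest for epithelial markers. As a pair they did not stand at either end for T cell or smooth muscle markers. The part of these markers in the results on the 33 genes was not tested.

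**Figure D2:**
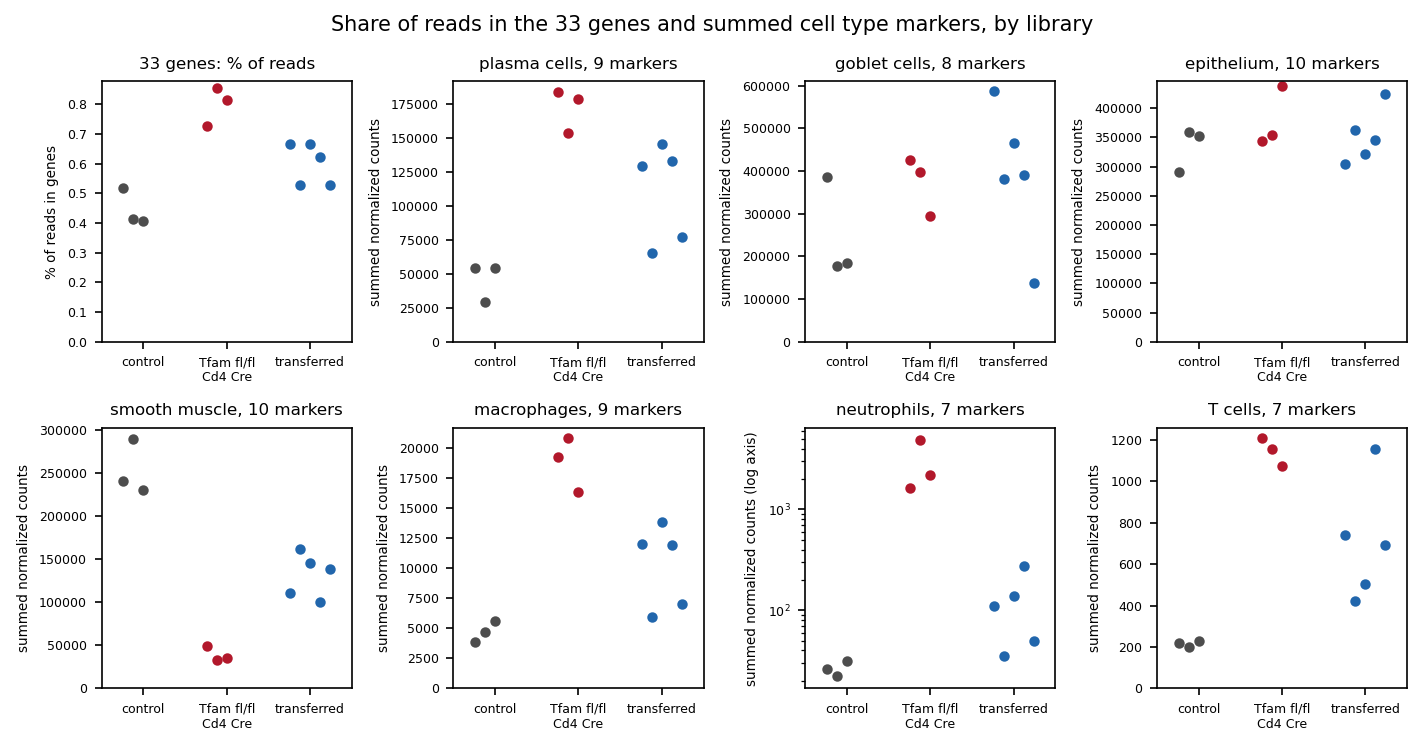
The first panel plots the share of reads (%) in the 33 genes for each library, and the other 7 the summed normalized counts of cell type markers (log axis for neutrophils), with 1 point per library in control (grey), knockout (*Tfam* fl/fl *Cd4* Cre, red) and transferred colon (blue). The share in the 33 genes reached 0.518% in control and began at 0.727% in knockout libraries, and plasma cell markers were likewise above every control library in all knockout libraries.

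In knockout colon, 27 of the 33 genes were higher than in control, 1 was lower and 5 did not pass the test (limma on log2(normalized count + 1), adjusted p under 0.05). Of all 16781 genes tested, 22.7% were called higher and 22.9% lower. The median log2 fold change was 0.75 over the 33 genes and 0.02 over all genes. Every knockout library exceeded every control library for 27 genes, a pattern found in 29% of all genes tested. The genes that rose included the folding machinery in every role, with *Creld2*, *Manf*, *Hspa5* and *Hyou1* among the largest, whereas *Sesn2* fell. Libraries were also scaled by their epithelial markers, which moves the median of all genes to -0.20. With this scaling 17 of the 33 genes were called higher and 2 lower (*Sesn2* and *Ddit3*), and the share of all genes called is not given. The median of the 33 genes lay 0.73 above that of all genes, a distance that cannot change, because the scaling shifts all genes alike.

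**Figure D3:**
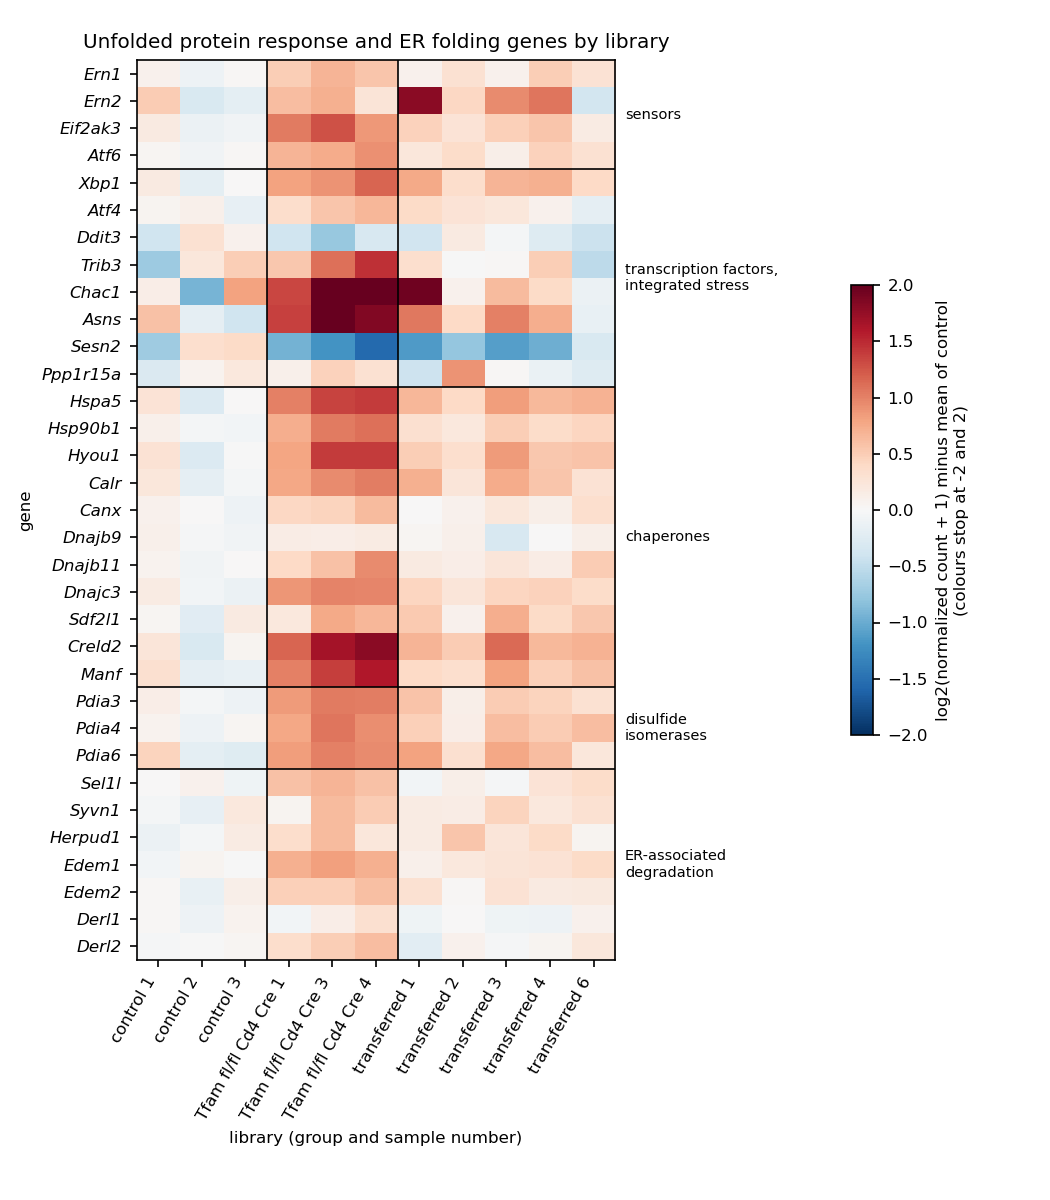
Each cell is log2(normalized count + 1) of a gene in a library minus the mean of the 3 control libraries, for the 33 genes (lines, by role) and 11 libraries (columns), with colours limited to -2 and 2. knockout libraries are above control for most genes and below it for *Sesn2* and *Ddit3*, while *Chac1* and *Ppp1r15a* each have 1 transferred library far above the others, and *Ern2* is widely spread over the transferred libraries.

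Of the 4 sensors, 3 rose, with a median log2 fold change of 0.67 over the 4. *Eif2ak3*, which encodes the kinase PERK, had 592, 485 and 502 normalized counts in control and 1079, 1270 and 956 in knockout libraries, a log2 fold change of 1.06 (standard error 0.14, limma adjusted p = 0.000147). *Atf6*, a membrane-bound transcription factor released by cleavage, had 635, 592 and 633 against 990, 1038 and 1165 (log2 fold change 0.78, standard error 0.11, limma adjusted p = 0.000203). *Ern1*, which encodes the broadly expressed IRE1, had 604, 533 and 581 against 804, 914 and 838 (log2 fold change 0.57, standard error 0.12, limma adjusted p = 0.00242). For these 3 genes every knockout library lay above every control library. *Ern2*, the form of IRE1 of mucus-secreting epithelium, had 768, 440 and 471 normalized counts in control and 829, 883 and 645 in knockout libraries, and the groups overlapped (log2 fold change 0.52, standard error 0.43, limma adjusted p = 0.342). Per kilobase of exon, *Ern2* was at 186 normalized counts in control colon and *Ern1* at 56.7. The order of *Ern2* in the libraries followed that of goblet cell markers at the ends of the range: control library 1 was the highest control library in both, and transferred libraries 1 and 6 were the highest and lowest of all 11 in both.

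Of the 8 transcription factors and integrated stress response genes, 5 rose, 1 fell and 2 did not pass the test. *Xbp1*, the transcription factor activated by IRE1 and needed by plasma cells, had 3849, 2986 and 3438 normalized counts in control and 5928, 6357 and 7625 in knockout libraries (log2 fold change 0.95, standard error 0.15, limma adjusted p = 0.000388). *Atf4*, the main effector of the integrated stress response, which is controlled largely in translation, had 3818, 3933 and 3289 against 4671, 5391 and 5822 (log2 fold change 0.52, standard error 0.15, limma adjusted p = 0.012). *Ddit3*, which encodes the proapoptotic factor CHOP, was the exception among the transcription factors, with 255, 418 and 358 against 256, 198 and 268, overlapping groups and a log2 fold change of -0.50 (standard error 0.21, limma adjusted p = 0.0729). The annotated exons of *Ddit3* share 64.1% of their bases with *Mars1* on the opposite strand, and those of *Xbp1* 22% with *Ccdc117*, so these counts are uncertain if strand was not used in counting. The following 3 genes were named after their values were seen. *Chac1*, a glutathione-degrading enzyme induced by ATF4, had the largest log2 fold change of the 33 genes, 2.08 (standard error 0.57, limma adjusted p = 0.0109), at low levels of 19.8, 8.95 and 32.0 normalized counts in control and 47.0, 112 and 94.2 in knockout libraries. *Asns*, asparagine synthetase, had 614, 359 and 309 against 1056, 1625 and 1478 (log2 fold change 1.74, standard error 0.33, limma adjusted p = 0.00129). The 3 knockout libraries of both genes exceeded all control libraries, although control library 1 stood above the other two for *Asns*. *Sesn2*, a stress-induced regulator of amino acid sensing, was the only member that fell, with 350, 721 and 746 against 297, 251 and 194 (log2 fold change -1.23, standard error 0.30, limma adjusted p = 0.00566). *Trib3*, a pseudokinase target of CHOP and ATF4, also rose at low levels, from 11.3 to 27.6 normalized counts in control to 28.4 to 54.8 (log2 fold change 1.03, limma adjusted p = 0.0455), a call lost under 11 of 21 alternatives. *Ppp1r15a*, the phosphatase subunit that ends the PERK signal, did not pass (log2 fold change 0.29, limma adjusted p = 0.422).

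Of the 11 chaperones and cochaperones, 10 rose, with a median log2 fold change of 0.95 over the 11. *Hspa5* encodes BiP, the ER member of the HSP70 family that also holds the sensors inactive, and had 8788, 6012 and 7369 normalized counts in control and 14647, 18721 and 19329 in knockout libraries, a ratio of means of 2.38 (log2 fold change 1.25, standard error 0.17, limma adjusted p = 0.000154). *Hsp90b1*, the ER member of the HSP90 family, had 9444, 8528 and 8475 against 14607, 18105 and 18795 (log2 fold change 0.95, standard error 0.12, limma adjusted p = 0.000137). *Hyou1*, a large HSP70-related chaperone that helps BiP exchange nucleotides, had 2522, 1700 and 2040 against 3564, 5413 and 5428 (log2 fold change 1.19, standard error 0.19, limma adjusted p = 0.000477). In all 3 genes knockout library 1 was the lowest of its group and still above every control library. Over the 33 genes this library was the lowest of its group 25 times. *Dnajc3*, a BiP cochaperone, had the smallest adjusted p of the 33 genes, with 1671, 1440 and 1383 normalized counts against 2744, 2965 and 2933 (log2 fold change 0.95, standard error 0.10, limma adjusted p = 3.48e-05). *Creld2*, a secreted ER stress protein, had 971, 665 and 848 against 1826, 2602 and 2851 (log2 fold change 1.54, standard error 0.20, limma adjusted p = 0.000139). *Manf*, a secreted factor that binds BiP, had 2643, 1871 and 1910 against 4259, 5498 and 6441 (log2 fold change 1.33, standard error 0.18, limma adjusted p = 0.00017). The groups were apart for all 3, and the lowest knockout value of *Creld2* was near the highest value that any transferred library reached. *Hspa5* shares 44.2% of its exon bases with *Rabepk* on the opposite strand and *Manf* 32.6% with *Rbm15b* on its own, genes at means of 338 and 930 normalized counts. Of the other 5 cochaperones and lectins, *Calr* (log2 fold change 0.91), the cochaperone *Dnajb11* (0.64), the BiP-cycle protein *Sdf2l1* (0.54) and the membrane lectin *Canx* (0.50) rose with limma adjusted p of 0.00125, 0.00346, 0.028 and 0.00349. *Dnajb9*, a cochaperone that represses IRE1, had 697 to 782 normalized counts in control and 805 to 817 in knockout libraries, groups that did not overlap and yet did not pass the test (log2 fold change 0.15, limma adjusted p = 0.323).

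All 3 disulfide isomerases rose. *Pdia3*, which works with calreticulin and calnexin on glycoproteins, had 8689, 7716 and 7333 normalized counts in control and 14180, 16235 and 16070 in knockout libraries (log2 fold change 0.97, standard error 0.13, limma adjusted p = 0.000189). *Pdia4*, another oxidoreductase of the same family, had 2004, 1775 and 1964 against 3254, 4012 and 3641 (log2 fold change 0.92, standard error 0.13, limma adjusted p = 0.000242). For *Pdia6*, whose product also attenuates IRE1 signaling, the range was 2848 to 4568 against 5984 to 6807 (log2 fold change 0.93, limma adjusted p = 0.00283). None of the 3 overlapped between the groups.

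Of the 7 genes of ER-associated degradation, 6 rose, with a median log2 fold change of 0.49 over the 7. *Edem1*, a lectin that hands misfolded glycoproteins to degradation, had 1863, 2008 and 1922 normalized counts in control and 3163, 3398 and 3168 in knockout libraries (log2 fold change 0.75, standard error 0.09, limma adjusted p = 8.04e-05). Its 3 values per group lay close together, with SDs of 72.9 and 134. *Sel1l*, the adaptor of the ubiquitin ligase complex (log2 fold change 0.62), the related lectin *Edem2* (0.52) and the channel component *Derl2* (0.49) rose with limma adjusted p of 0.00129, 0.00176 and 0.0049. The ligase *Syvn1* (log2 fold change 0.40) and its partner *Herpud1* (0.40) rose with limma adjusted p of 0.0456 and 0.0382, *Syvn1* with overlapping groups, and both calls were lost in several alternatives. *Derl1*, the paralog of *Derl2*, did not pass (log2 fold change 0.14, limma adjusted p = 0.302).

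**Figure D4:**
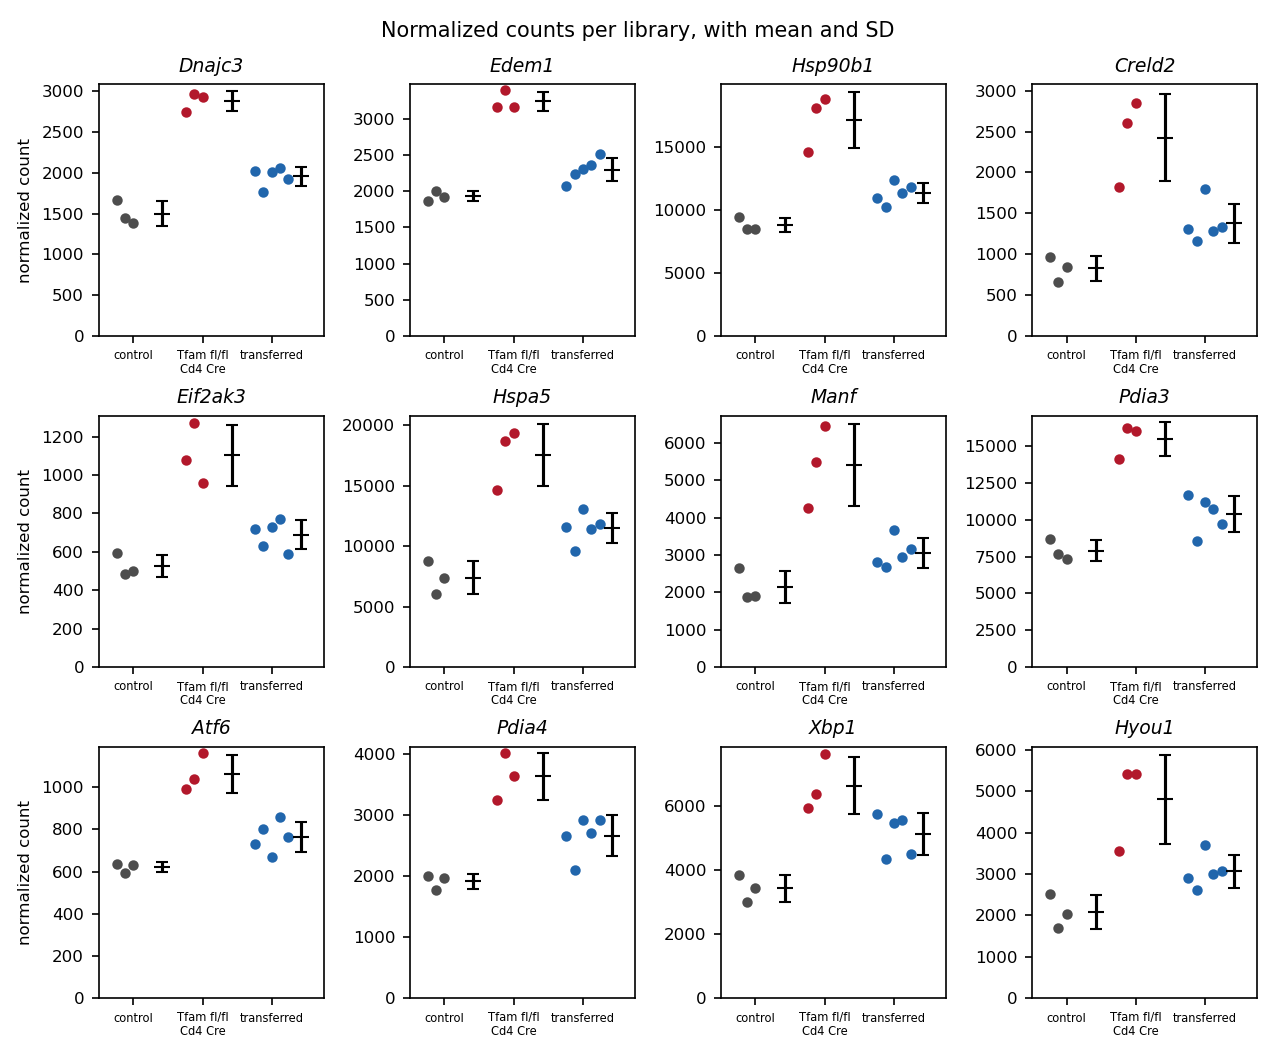
Normalized counts per library (vertical axes from 0) of the 12 genes with the smallest adjusted p between knockout and control colon, with 1 point per library and bars for mean ± SD (n = 3, 3 and 5). All knockout points lie above all control points in every panel, and transferred points lie mostly between, from 9617 to 13074 for *Hspa5*.

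With 1 library left out at a time, 5 of the 28 calls were lost. The share of all called genes that lost a call in the same way is not given. *Chac1* lost its call without control library 2 (limma adjusted p = 0.0502), and *Sdf2l1* without control library 1 or 2 or knockout library 3 or 4 (0.052 to 0.11). *Herpud1* lost it without control library 1 or 2, knockout library 1 or 3 or transferred library 3 (limma adjusted p of 0.0503 to 0.157). *Trib3* lost it in 7 and *Syvn1* in 8 of the 11 omissions, with limma adjusted p of up to 0.172 and 0.18.

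By promoter, the 10 genes with an ERSE or ERSE-II all rose, with log2 fold changes of 0.40 to 1.54 (median 0.92). Of the 18 genes whose promoter held neither, 14 rose and 1 fell, with a median of 0.60. *Xbp1*, *Pdia3*, *Pdia4* and *Edem1* were among those 18. The 4 genes with a CARE, *Asns*, *Chac1*, *Trib3* and *Herpud1*, all rose, with a median of 1.38. Beyond the 33 genes, 39 genes held an ERSE or ERSE-II match, of which 18 were tested. Of these, 6 were higher and 2 lower, with a median of 0.36. Over all genes tested, 22.7% were higher and 22.9% lower, and the counts by promoter are to be read against these shares. A match is a description of the letters and not of binding.

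Transferred colon was compared with knockout colon to ask how the same genes stood after CD4 T cell therapy. This comparison shares its knockout libraries with the one above, so that values are given side by side and the directions are not independent. Of the 33 genes, 20 were lower in transferred colon, none was higher and 13 did not pass (limma adjusted p under 0.05), where 14.2% of all genes tested were called lower and 17% higher. The count of 0 higher genes was also 0 at an unadjusted p under 0.05, with edgeR and with DESeq2. It was 1 in a fit with the replicate number as a block. The median log2 fold change was -0.41 over the 33 genes and -0.02 over all genes, and 21 genes were lower in every transferred library than in any knockout library, as were 16.6% of all genes tested. With the epithelial scaling the count of lower genes was 5 (*Hsp90b1*, *Creld2*, *Manf*, *Edem1* and *Derl2*), and the share of all genes called is not given. The median of the 33 genes lay 0.39 below that of all genes, a distance that this scaling cannot change. The count of lower genes also fell to 10 without knockout library 3 and to 11 without library 4. The shares of all genes called in these smaller fits are not given, so a loss particular to the 33 genes cannot be read from these counts.

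Of the sensors, *Eif2ak3* had 719, 631, 730, 772 and 589 normalized counts in the 5 transferred libraries, all below the 956 of the lowest knockout library (log2 fold change -0.68, standard error 0.12, limma adjusted p = 0.00233). *Atf6* had 729, 803, 671, 857 and 763 (log2 fold change -0.48, standard error 0.10, limma adjusted p = 0.0037). *Ern1* had 605, 709, 609, 803 and 698, of which 803 was 1 count under the lowest knockout library (log2 fold change -0.32, standard error 0.11, limma adjusted p = 0.0393). The 3 sensors were thus lower, *Eif2ak3* by most. *Ern2* had 1889, 719, 1040, 1144 and 422, the widest spread of the 4 sensors, and overlapped the knockout range of 645 to 883 (log2 fold change 0.25, standard error 0.38, limma adjusted p = 0.652). Goblet cell markers in the same 5 libraries summed to 587262, 380214, 465223, 389963 and 138076, and their part in this spread was not tested.

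Of the transcription factors and integrated stress response genes, 3 of 8 were lower. *Xbp1* had 5752, 4344, 5479, 5546 and 4484 normalized counts, the highest of them just below the lowest knockout value of 5928 (log2 fold change -0.38, standard error 0.13, limma adjusted p = 0.0475). *Atf4* had 4788, 4436, 4283, 3912 and 3234, overlapping with the knockout libraries (log2 fold change -0.36, standard error 0.13, limma adjusted p = 0.0513). *Ddit3* had 258, 380, 326, 280 and 251, with overlapping groups (log2 fold change 0.31, standard error 0.19, limma adjusted p = 0.234). *Xbp1* and *Atf4* stood on either side of the threshold with nearly equal differences. *Asns* had 852, 536, 823, 673 and 370, all under the knockout libraries (log2 fold change -1.13, standard error 0.29, limma adjusted p = 0.0129). *Chac1* had 72.1, 19.1, 28.5, 23.8 and 16.4 (log2 fold change -1.50, standard error 0.51, limma adjusted p = 0.0429), and transferred library 1 alone reached into the knockout range. *Sesn2*, the gene lower than control in knockout colon, had 261, 334, 268, 292 and 464 and did not pass (log2 fold change 0.38, limma adjusted p = 0.304). *Trib3* (log2 fold change -0.97) and *Ppp1r15a* (-0.27) did not pass either, with limma adjusted p of 0.0506 and 0.449.

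Of the chaperones, 8 of 11 were lower, with a median log2 fold change of -0.56 over the 11. *Hspa5* had 11595, 9617, 13074, 11453 and 11869 normalized counts, all below the knockout range of 14647 to 19329 (log2 fold change -0.60, standard error 0.15, limma adjusted p = 0.00991). *Hsp90b1* had 10955, 10219, 12362, 11383 and 11806 against a range of 14607 to 18795 (log2 fold change -0.59, standard error 0.11, limma adjusted p = 0.00247). *Dnajc3* had 2018, 1767, 2011, 2062 and 1922 against 2744 to 2965 (log2 fold change -0.56, standard error 0.09, limma adjusted p = 0.000925). These 3 genes were about equally far below knockout colon. *Creld2* had 1314, 1167, 1792, 1281 and 1330 (log2 fold change -0.81, standard error 0.18, limma adjusted p = 0.00589), and *Manf* had 2798, 2669, 3676, 2951 and 3169 (log2 fold change -0.81, standard error 0.16, limma adjusted p = 0.00338). *Hyou1* had 2913, 2605, 3703, 3008 and 3076, where transferred library 3 exceeded knockout library 1 (log2 fold change -0.63, standard error 0.17, limma adjusted p = 0.0156). Transferred library 3 was the highest of the transferred libraries for *Creld2*, *Manf*, *Hyou1*, *Hspa5* and *Hsp90b1*. *Canx* (log2 fold change -0.34) and *Dnajb11* (-0.40) were also lower, with limma adjusted p of 0.0211 and 0.0326. *Calr* (-0.41), *Dnajb9* (-0.16) and *Sdf2l1* (-0.10) did not pass, with limma adjusted p of 0.0605, 0.264 and 0.679.

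The isomerase *Pdia3* had 11681, 8580, 11216, 10773 and 9731 normalized counts in transferred libraries (log2 fold change -0.58, standard error 0.12, limma adjusted p = 0.00393). *Pdia4* had 2664, 2101, 2923, 2715 and 2919 (log2 fold change -0.45, standard error 0.12, limma adjusted p = 0.013). Transferred library 2 was the lowest of its group for both. *Pdia6* had 3926 to 5906, below the lowest knockout library, and did not pass (log2 fold change -0.38, limma adjusted p = 0.124). In ER-associated degradation, 4 of 7 genes were lower. *Edem1* had 2077, 2236, 2310, 2356 and 2510 against 3163 to 3398 (log2 fold change -0.50, standard error 0.08, limma adjusted p = 0.00105). *Sel1l* (log2 fold change -0.48), *Derl2* (-0.46) and *Edem2* (-0.32) followed with limma adjusted p of 0.00538, 0.00619 and 0.0216. *Derl1* (-0.18), *Syvn1* (-0.15) and *Herpud1* (-0.12) did not pass, with limma adjusted p of 0.172, 0.436 and 0.499.

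Of the 20 calls in this comparison, 10 were lost when 1 library was left out, and the share lost over all called genes is not given. *Asns*, *Hspa5*, *Hyou1*, *Canx* and *Edem2* lost theirs without knockout library 3 or 4, with limma adjusted p of up to 0.0637, 0.0507, 0.0805, 0.102 and 0.0948, and *Pdia4* lost it without knockout library 3 (0.0722). *Ern1*, *Xbp1* and *Dnajb11* each lost it in 6 omissions and *Chac1* in 7, among them both of these libraries for all 4 genes, with limma adjusted p of up to 0.157, 0.201, 0.161 and 0.166. Over all alternatives, the calls of *Ern1*, *Xbp1* and *Dnajb11* held in 12, 9 and 13 of 22, and that of *Chac1* in 10 of 21. *Xbp1* and *Chac1* lost theirs with edgeR as well. The sensors *Eif2ak3* and *Atf6*, the chaperones *Hsp90b1*, *Dnajc3*, *Creld2* and *Manf*, *Pdia3*, and *Sel1l*, *Edem1* and *Derl2* kept their calls in all 11 omissions.

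Transferred colon was also set against control colon, with which it shares the control libraries of the first comparison. Only *Dnajc3* passed the test (log2 fold change 0.39, standard error 0.09, limma adjusted p = 0.0488), and no gene was lower, where 1.14% of all genes tested were called higher and 0.453% lower. At an unadjusted limma p under 0.05, 18 of the 33 genes were higher and 1 lower. With edgeR none was called in either direction, and DESeq2 called 10 higher and 1 lower. The shares of all genes in these settings are not given, so these counts have no background to be read against. The median log2 fold change was 0.30 over the 33 genes and -0.01 over all genes. For 13 genes every transferred library lay above every control library, a pattern held by 6.09% of all genes tested, and 8 of these 13 were chaperones. Between the same groups 4 T cell, 2 plasma cell, 1 macrophage and 1 neutrophil marker were higher and 6 of 10 smooth muscle markers lower, and the part of these markers was not tested. *Creld2* (log2 fold change 0.73), *Hspa5* (0.65) and *Xbp1* (0.58) had no overlap between the groups and limma adjusted p of 0.0624, 0.0535 and 0.0535. The difference for *Eif2ak3* was 0.38 (adjusted p = 0.128 from limma), for *Atf6* 0.30 (adjusted p = 0.128), for *Atf4* 0.16 (adjusted p = 0.524) and for *Ddit3* -0.19 (adjusted p = 0.609), each on the log2 scale. *Sesn2* was at -0.86 (limma adjusted p = 0.117), with 1 transferred library above the lowest control library. *Derl1*, *Derl2*, *Dnajb9*, *Trib3* and *Ppp1r15a* lay within 0.07 of 0. The call of *Dnajc3* held in only 6 of 22 alternatives. Among others, it was lost with edgeR, a pseudocount of 10, no filter on low values, a fit of these groups alone, no variance trend and the epithelial scaling, and in 9 of 11 omissions of a library, among them each of the 3 control libraries (limma adjusted p of up to 0.253).

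**Figure D5:**
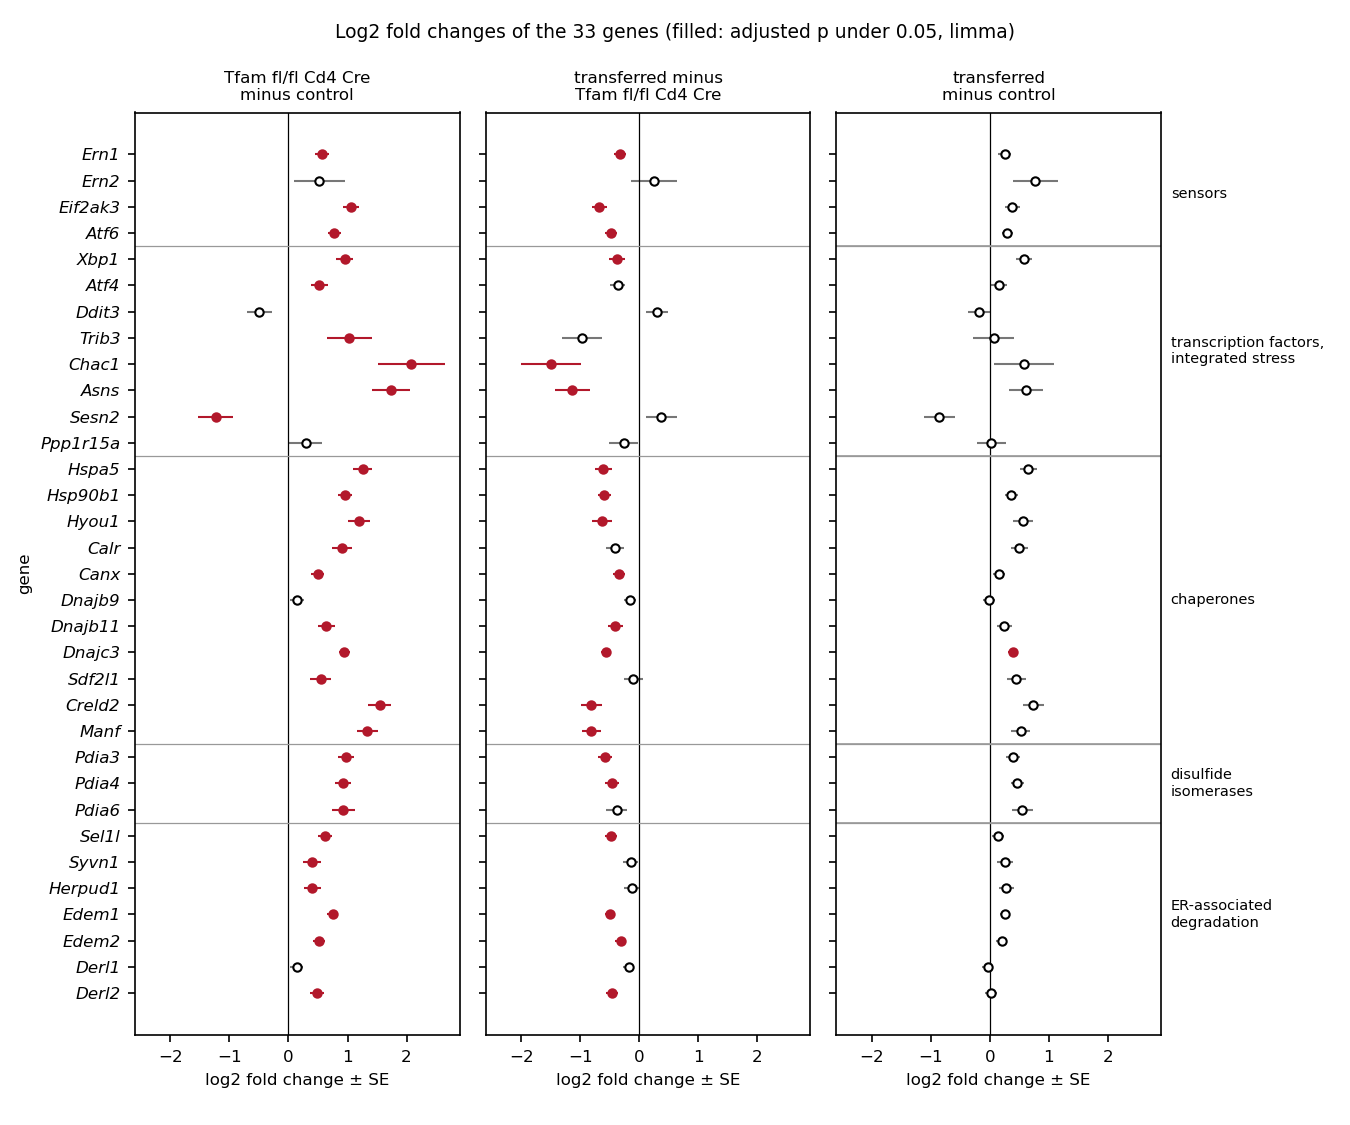
Log2 fold changes ± standard error of the 33 genes, by role, for knockout (*Tfam* fl/fl *Cd4* Cre) minus control, transferred minus knockout and transferred minus control, with filled points for limma adjusted p under 0.05. Filled points number 28, 20 and 1, and the panels share groups of libraries and are not independent.

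Other genes of the pathway, 107 in 7 lists of which 106 were tested, were drawn up from general knowledge, with earlier results known. Between knockout and control colon 58 of the 106 were higher and 3 lower (median log2 fold change 0.48), where 22.7% of all genes tested were higher and 22.9% lower. Between transferred and knockout colon 45 were lower and 1 higher (median -0.29, with 14.2% and 17% of all genes), and between transferred and control colon 2 were higher and none lower (median 0.17, with 1.14% and 0.453% of all genes). The counts of each list below are to be read against these shares. The 2 higher genes were *Serp1*, a translocon-associated stress protein, and *Uggt1*, the folding sensor of glycoproteins.

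The translocon and signal peptidase, through which proteins enter the ER, had 12 of 15 genes higher in knockout than in control colon (median log2 fold change 0.72) and 12 lower in transferred than in knockout colon. *Sec61g*, a translocon subunit, differed by 0.96 and -0.56 in these comparisons, the signal peptidase subunits *Spcs3* by 0.69 and -0.53 and *Sec11c* by 0.86 and -0.47, and the translocon-associated *Ssr3* by 0.75 and -0.55, all called. Of 11 genes of N-glycosylation and glycan trimming 8 were higher, *Uggt2* was lower (log2 fold change -0.90, limma adjusted p = 0.0458), and 4 were lower after transfer. The oligosaccharyltransferase subunits *Ddost* (log2 fold change 0.94), *Rpn1* (0.87) and *Stt3a* (0.72), and *Uggt1* (0.85), were among the genes that rose. Of 17 further folding and oxidation genes 8 were higher and 5 lower after transfer. *Ero1a*, the oxidase that drives disulfide formation, had 868 ± 250 normalized counts in control (SD, n = 3), 2213 ± 328 in knockout (SD, n = 3) and 1035 ± 67.0 in transferred colon (SD, n = 5). *Serp1* (log2 fold change 0.93), the disulfide reductase *Dnajc10* (1.12) and the prolyl isomerase *Fkbp11* (2.00) also rose against control.

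Of 16 tested further genes of ER-associated degradation 6 were higher (median log2 fold change 0.18) and 5 were lower after transfer. These included the ubiquitin-conjugating enzyme *Ube2j1* (log2 fold change 0.48 against control), the selenoprotein *Selenos* (0.60), the extraction ATPase *Vcp* (0.48) and *Edem3* (0.66). Of 12 other regulators of the unfolded protein response 2 were higher, *Creb3* (0.41) and *Traf2* (0.32), and *Creb3l2* was lower (-0.36). In a list of 12 genes, 2 higher genes are near the 22.7% of all genes. *Map3k5*, a kinase downstream of IRE1, did not pass (0.16, limma adjusted p = 0.212). Of 23 further genes of the integrated stress response 13 were higher and 1 lower (median 0.83), and 11 were lower and 1 higher after transfer. *Slc7a11*, the cystine transporter, had 21.0 ± 8.66 normalized counts in control (SD, n = 3), 257 ± 84.4 in knockout (SD, n = 3) and 45.6 ± 14.2 in transferred colon (SD, n = 5), a log2 fold change of 3.59 against control (limma adjusted p = 2.88e-05). *Ddit4*, an inhibitor of mTORC1 (log2 fold change 1.64), and *Eif2ak2*, the kinase that senses double-stranded RNA (1.15), also rose. *Cth*, the cystathionine lyase that makes cysteine, ran the other way, with -1.62 against control and 1.22 in transferred against knockout colon (limma adjusted p = 0.000582 and 0.00326). Of 12 cytosolic aminoacyl-tRNA synthetases 9 were higher and 6 lower after transfer. *Wars1*, which interferon gamma also induces, had the largest difference of that list (log2 fold change 2.43, limma adjusted p = 2.84e-05, and -1.91 after transfer), beside *Tars1* (1.03), *Nars1* (0.65) and *Eprs1* (0.57).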

How the data were processed

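RNA of mouse colon was sequenced in 11 libraries, grouped by genotype and treatment as labelled. The authors aligned reads to GRCm39 with HISAT2 (2.2.1) per the submitters' processing notes, which also name SAMtools (1.13), HTSeq (1.99.2) and DESeq2 (1.40.2), whereas the methods allow HISAT2 or STAR and either of a pair of sequencers. The methods state stranded mRNA. Which annotation release was counted, and with which strand setting, is not given in the sources used here. The deposited signal values are counts per gene divided by 1 factor per library, so that reads came back as whole multiples within 0.05 (100% of values). No column was left unused for lack of a label. At this depth a gene at 10 normalized counts rests on about 10 reads.

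The 3 groups entered 1 model in limma (3.58.1, under R 4.3.3), fitted to log2(normalized count + 1) of genes averaging 10 or more, with the variance modelled as a trend in the level. A gene was called at an adjusted p under 0.05 (Benjamini-Hochberg, over all 16781 genes). Fold changes on this scale understate those of low genes. GENCODE annotation of GRCm39 gave names and exons for 99.2% of identifiers, and RefSeq (GRCm38.p6, another build than the counts) gave promoters. The 33 genes, the other lists and the alternatives were chosen with earlier results of these data known. Values per library are given for the 12 genes with the smallest adjusted p between knockout and control colon, the 4 sensors, *Xbp1*, *Atf4* and *Ddit3*. *Chac1*, *Asns* and *Sesn2* were added after their values were seen. Up to 4 genes per pathway list are named by the adjusted p between knockout and control colon. *Uggt2* is named besides, as the only lower gene of its list. Alternatives were pseudocounts of 0.5 and 10, no filter or a mean of 50, the recovered reads scaled by TMM or tested with DESeq2 (1.42.0) or edgeR (4.0.16), a fit of just the pair of groups, a constant variance, the replicate block, an unadjusted p under 0.05 with a log2 fold change beyond 0.6 (the paper's threshold, run here with limma) and each library left out. Scaling by epithelial markers was added after the data were seen. The fits were tested on simulated data.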

Additional observations from a re-analysis of the deposited data

Results flagged for a closer look

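In the 5 transferred libraries, the highest or lowest value of 5 of the 33 genes stood apart from the rest by Dixon's test, which chance does in about 1 of 20 groups, and groups of 3 were not tested. *Chac1* had 72.1 normalized counts in transferred library 1 and 16.4 to 28.5 in the others. *Ppp1r15a* had 848 in library 2 and 341 to 462 in the others, and *Dnajb11* had 4734 in library 6 and 3615 to 3917 in the others. *Creld2* had 1792 in library 3 and 1167 to 1330 in the others, whereas *Dnajb9* was low in library 3, with 586 against 736 to 791.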

How the results depend on the processing

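Higher genes in knockout against control numbered 17 with epithelial scaling, 19 at the paper's threshold, 25 to 27 in the other fits and 22 to 27 with 1 library left out, and lower genes 2 with DESeq2 and with epithelial scaling and 1 to 2 with 1 library left out (2 without control library 1). Lower genes in transferred against knockout colon numbered 5 with epithelial scaling, 8 at the paper's threshold and 10 to 21 with 1 library left out (10 without knockout library 3, 11 without library 4), and higher genes 0 to 0. Higher genes in transferred against control colon numbered 10 with DESeq2, 2 at the paper's threshold, 0 with a pseudocount of 10, no filter, edgeR, only the groups compared, no variance trend or epithelial scaling, and 0 to 6 with 1 library left out (6 without transferred library 2, 3 without transferred library 6, 0 without any 1 control library, knockout library 3 or 4, or transferred library 1, 3 or 4). Lower genes there numbered 1 with DESeq2 and at the paper's threshold and 0 to 1 with 1 library left out (1 without transferred library 6). Without counting the paper's threshold, which was tallied by its counts alone, 17 of 28, 5 of 20 and 0 of 1 calls held under all the alternatives that could be run. The cause was not tested, and the shares of all genes called under the alternatives are not given.

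The correlation of the deviations of same-numbered libraries was 0.386 for control and transferred library 1, 0.269 for control and transferred library 2 and 0.105 for knockout and transferred library 3. It was -0.102 to 0.0569 in the other 5 pairs. Differently numbered libraries were not correlated for reference, so these values cannot decide whether the numbers pair the samples. Since the labels name no shared animal or batch, the numbers were not taken to pair the samples. With the replicate block 26 genes were higher against control, 16 lower and 1 higher in transferred against knockout colon, and 4 higher in transferred against control colon (*Ern2*, *Xbp1*, *Hspa5* and *Pdia4*, and not *Dnajc3*).

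The log2 fold changes that turned direction belonged to genes that did not pass the test. In knockout against control colon, *Dnajb9* was at -0.064 and *Derl1* at -0.073 with epithelial scaling. In transferred against knockout colon, *Ern2* ranged from -0.007 (without transferred library 1) to 0.533 with 1 library left out, *Sdf2l1* from -0.263 to 0.007 (without knockout library 3), and epithelial scaling gave 0.047 for *Sdf2l1* and 0.022 for *Herpud1*. In transferred against control colon, the ranges with 1 library left out were -0.298 to 0.309 for *Trib3* (below 0 without control library 1 or transferred library 1 or 4), -0.193 to 0.135 for *Ppp1r15a* (below 0 without control library 1 or transferred library 2), -0.048 to 0.065 for *Dnajb9* (above 0 without control library 1 or transferred library 3) and -0.027 to 0.085 for *Derl2* (below 0 without transferred library 6). There epithelial scaling gave -0.004 for *Trib3*, -0.041 for *Ppp1r15a* and -0.042 for *Derl2*, edgeR 0.002 for *Dnajb9* and the replicate block -0.058 for *Derl2*. Depth limits *Trib3* and *Chac1* most, which had the lowest means.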
